A study of Mus musculus with 10 samples.

Results

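Podocytes are the epithelial cells that wrap the capillaries of the kidney glomerulus and carry the last layer of the filter, the slit diaphragm, between their interlocking foot processes. Their identity is held by transcription factors, among them WT1 and TCF21, and their shape by slit diaphragm proteins, a charged surface coat and an actin cytoskeleton. The genes described here are 7 podocyte genes: the regulators Tcf21 and Wt1, the slit diaphragm gene Nphs1, the surface genes Podxl and Ptpro, the actin-associated gene Synpo and the cell cycle inhibitor gene Cdkn1c. All probe sets that the platform annotation maps to these symbols were taken, which gave 10 of the 22626 probe sets that are no controls. By symbol these are 7 of 12393 genes. Tcf21, Wt1, Nphs1 and Cdkn1c have 1 probe set each, and Podxl, Synpo and Ptpro have 2 each.

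The mice were C57/BLACK6 males of 7 weeks and about 20 g, and 10 Affymetrix arrays of 1 colour measured RNA of their whole kidneys. Normal kidneys came from mice without surgery, which were given 4-thiouridine (s4U, 200 µM) with tritiated cytidine (34 µCi) into the abdomen at 0 h and 1 h and were killed at 2 h. Contralateral kidneys were the unclamped kidneys of mice under diethylether whose left renal artery and vein had been clamped for 45 min; these mice were given the same injections at 1 h and 2 h of reperfusion and were killed at 3 h. Each kidney group was measured as total RNA (2 arrays), amplified total RNA (2 arrays) and newly transcribed RNA (1 array), the last being RNA specifically enriched by its s4U. All groups carry the s4U and cytidine. The labels name no sham-operated mice, so the effects of the operation, the ether and the hour of removal cannot be told apart from that of the kidney group.

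Of the 10 probe sets, 7 passed the filter on dim probe sets and were tested among 13575: those of Tcf21, Nphs1 and Cdkn1c, both of Podxl, and 1 each of Synpo and Ptpro. The Wt1 probe set and the second ones of Synpo and Ptpro were below it and are described without a test. Where a gene has 2 probe sets, the leading one has the higher mean over the arrays. In whole kidney RNA, fewer podocytes and less RNA per podocyte cannot be told apart.

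The arrays differed in brightness and in 3' bias. The median deposited intensity of an array ran from 18.6 to 70.3, and the ratio of the 3' to the 5' control probe sets of Gapdh was 0.938 to 1.12 on total RNA arrays, 4.21 to 6.23 on amplified ones, and 12.7 (normal) and 68.9 (contralateral) on the newly transcribed ones. Within total RNA the Gapdh ratio was 0.938 and 0.972 in normal and 1.03 and 1.12 in contralateral kidneys, higher without overlap. The same ratio for the Actb control probe sets was also higher without overlap there. The medians of these arrays were 55.85 and 59.7 in normal and 40.4 and 41.6 in contralateral kidneys. The part of 3' bias in the contralateral differences was not tested. Because of the brightness, and with no correction of 3' bias, values are given as normalized log2 signal, the quantile-normalized log2 of intensity plus 11.8. Differences are on this scale, which understates the change of dim probe sets, and ± after a difference is limma's standard error. An adjusted p comes from limma with Benjamini-Hochberg adjustment over all 13575 tested probe sets, and a difference passed at an adjusted p under 0.05.

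**Figure D1:**
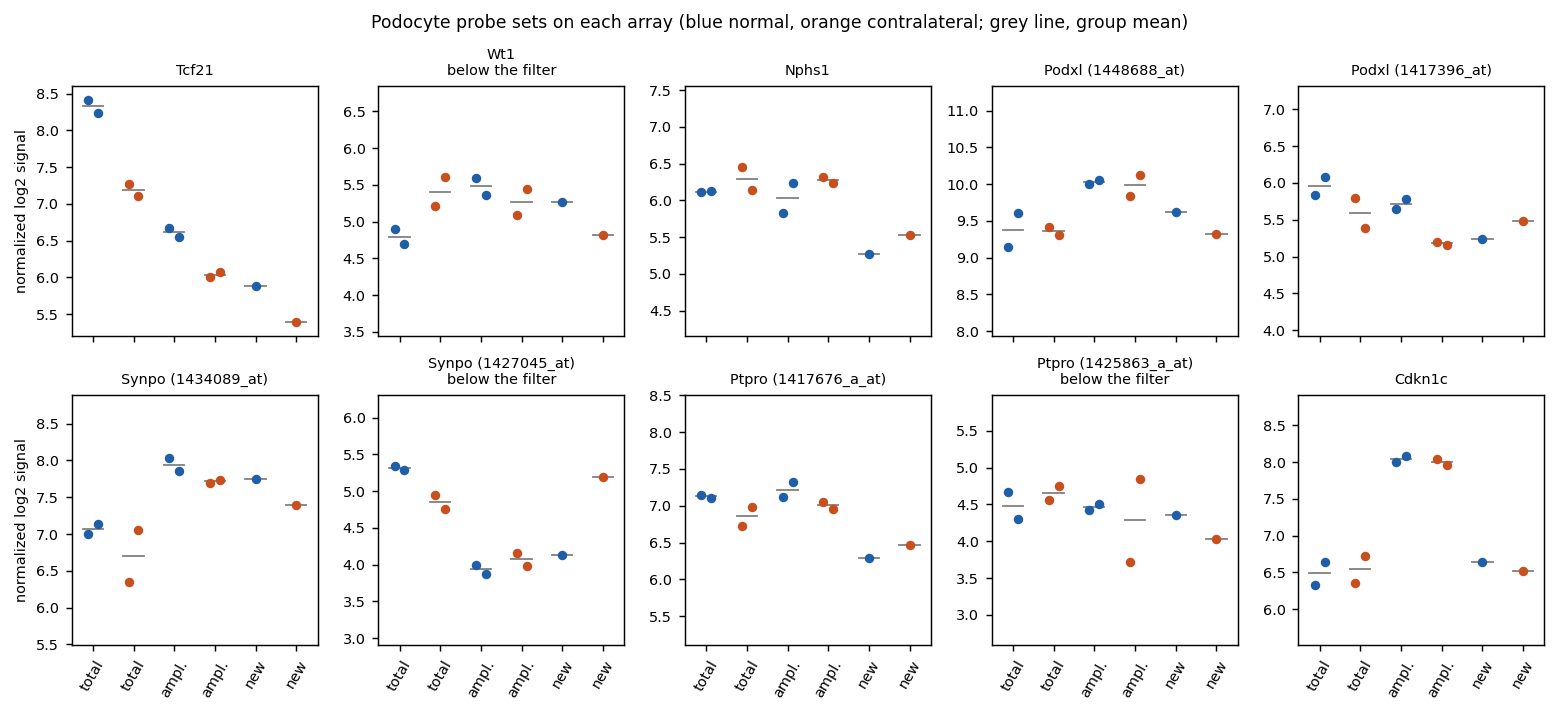
Normalized log2 signal (vertical axis, each panel spanning the same number of log2 units) of the 10 podocyte probe sets on each of the 10 arrays, with total, amplified total (ampl.) and newly transcribed (new) RNA along the horizontal axis. Blue points are normal and orange points contralateral kidneys, and grey lines are group means; Tcf21 steps down from 8.33 in normal total RNA to 5.40 on the contralateral newly transcribed array.

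Tcf21 encodes a basic helix-loop-helix transcription factor of podocytes and of the mesenchyme of several organs. In total RNA its normalized log2 signal was 8.41 and 8.24 in normal kidneys and 7.27 and 7.11 in contralateral kidneys. Both contralateral arrays lay below both normal ones, as for 24.2% of tested probe sets. Tcf21 fell by 1.14 ± 0.15 (adjusted p = 0.00382), a 2.20-fold change on this scale. Among 13575 probe sets, 46 were called lower (0.339%), and only 7 had a lower difference than Tcf21.

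The deposited intensities of Tcf21 in total RNA were 388.9 and 349.3 in normal kidneys and 122.5 and 118.1 in contralateral ones. Set against the median of their own array, these were 6.96 and 5.85 times the median in normal and 3.03 and 2.84 times in contralateral kidneys. Both contralateral arrays were thus also lower in the values as deposited, whose scaling is not stated, and against the array median. The call held in all 19 alternative fits, with differences from -1.23 to -0.99 and adjusted p from 0.00136 to 0.0376. The contralateral total RNA arrays also had the higher Gapdh 3'/5' ratios given above, and the part of 3' bias in this fall was not tested.

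In amplified total RNA the Tcf21 signal was 6.67 and 6.55 in normal and 6.01 and 6.07 in contralateral kidneys, lower without overlap, as for 25.3% of tested probe sets. It fell by 0.57 ± 0.15 (adjusted p = 0.0331), where 6.19% of tested probe sets were called lower. This smaller change lost its call when any 1 of the 4 amplified arrays was left out. The adjusted p was 0.204 and 0.122 without normal replicate 1 or 2, and 0.10 and 0.0680 without contralateral replicate 1 or 2. The call was also lost with no filter (adjusted p = 0.0614) and with only the 4 amplified arrays in the fit (adjusted p = 0.0626).

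On the newly transcribed arrays Tcf21 was at 5.89 in the normal and 5.40 in the contralateral kidney, a difference of -0.49 with no replicate. This was smaller than 2-fold. Between these arrays 18.5% of tested probe sets were at least 2-fold lower and 14.3% at least 2-fold higher. Over all preparations together the difference was -0.78 ± 0.14 and did not pass (adjusted p = 0.0539), the 69th smallest p, where 0.0589% of probe sets were called lower. It passed in 5 of 18 alternative fits, among them those without the normal (adjusted p = 0.00993) or the contralateral (adjusted p = 0.00998) newly transcribed array.

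The contralateral difference of Tcf21 was nominally smaller in amplified than in total RNA, by 0.57 ± 0.21, and this difference between preparations did not pass (adjusted p = 0.185), as in all 19 alternative fits. Across the 6 groups the Tcf21 level ran from 8.33 in normal total RNA through 7.19 in contralateral total, 6.61 in normal amplified and 6.04 in contralateral amplified to 5.89 and 5.40 on the newly transcribed arrays. Each step among the 4 groups of 2 arrays was larger than 2 standard errors. The step from contralateral amplified to normal newly transcribed RNA (0.15) was not, and the last step sets 1 array against 1 and has no replicate.

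**Figure D2:**
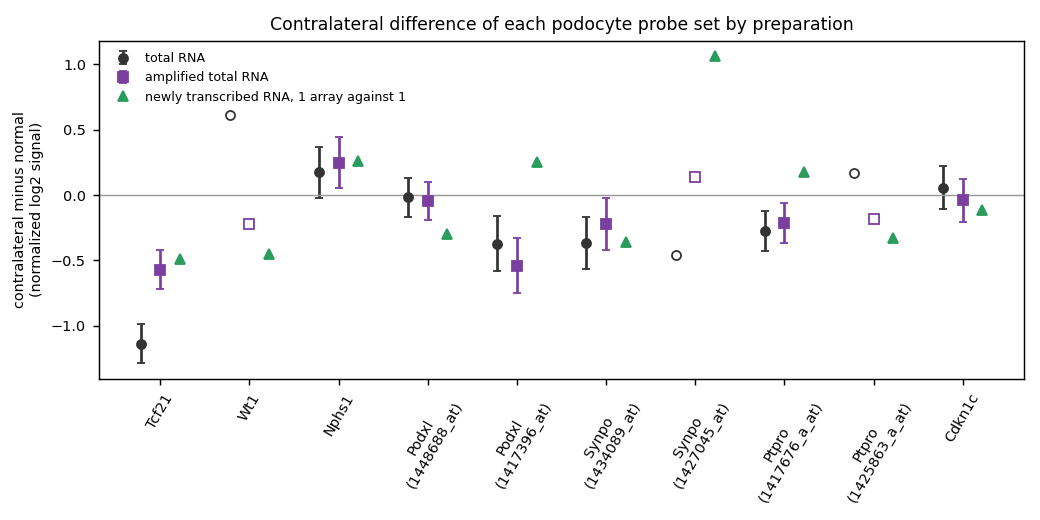
Contralateral minus normal difference in normalized log2 signal (vertical axis) for each podocyte probe set (horizontal axis) in total RNA (circles), amplified total RNA (squares) and newly transcribed RNA (triangles, 1 array against 1). Bars are limma standard errors. Open circles and squares are probe sets below the filter, which have no bars. Triangles are filled for every probe set and have no bars. Tcf21 in total RNA, at -1.14, lies farthest below 0.

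From the promoter table of RefSeq (build GRCm38.p6), windows of 3 of the 7 members were taken, Tcf21, Nphs1 and Ptpro. Whether the table holds the other members is not described here. Of the 3 taken, Tcf21 fell, Nphs1 had contralateral values above the normal ones, and Ptpro had values below them without passing. Their windows of 250 bases before the annotated start are shown. Each is written 5′ to 3′ on the strand of the gene, with any E-box in capitals. E-boxes are the sites that basic helix-loop-helix factors such as TCF21 can bind. Tcf21 is at chr10:22820144-22820393 (minus strand), Nphs1 at chr7:30459808-30460057 (plus strand) and Ptpro at chr6:137252049-137252298 (plus strand).
Tcf21: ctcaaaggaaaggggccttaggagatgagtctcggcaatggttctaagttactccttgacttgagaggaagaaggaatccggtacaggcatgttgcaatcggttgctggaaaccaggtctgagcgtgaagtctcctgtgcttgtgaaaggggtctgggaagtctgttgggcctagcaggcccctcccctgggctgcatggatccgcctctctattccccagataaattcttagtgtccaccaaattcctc
Nphs1: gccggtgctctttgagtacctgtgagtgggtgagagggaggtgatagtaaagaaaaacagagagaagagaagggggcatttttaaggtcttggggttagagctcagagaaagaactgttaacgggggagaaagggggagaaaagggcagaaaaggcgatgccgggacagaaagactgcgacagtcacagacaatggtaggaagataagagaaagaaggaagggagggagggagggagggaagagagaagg
Ptpro: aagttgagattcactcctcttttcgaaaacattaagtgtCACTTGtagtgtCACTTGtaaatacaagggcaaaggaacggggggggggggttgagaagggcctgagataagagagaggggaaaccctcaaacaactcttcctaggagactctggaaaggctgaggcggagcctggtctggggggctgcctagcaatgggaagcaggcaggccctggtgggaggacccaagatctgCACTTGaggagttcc

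The E-box CANNTG was searched on both strands. The Ptpro window held 3 matches, all CACTTG, whose first bases lie at -211, -199 and -15 from the start, and the Tcf21 and Nphs1 windows held 0. Of all 32851 windows of this length in the table, 66.2% held at least 1 E-box. The E-box form CAGCTG, a subset of CANNTG, was in 13.0% of all windows and the EGR motif GCGNGGGCG in 4.70%, and neither was in the windows of the 3 members. A match is a description of the letters and not a binding site.

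Wt1 encodes the zinc finger factor required for podocyte development and for the expression of many slit diaphragm genes. Its 1 probe set was just below the filter, with a mean at the 38.7th percentile of all probe sets. The s in its identifier (1425995_s_at) marks a probe set that can match several transcripts. In total RNA its signal was 4.90 and 4.69 in normal and 5.21 and 5.60 in contralateral kidneys, higher without overlap. The amplified arrays overlapped, at 5.59 and 5.37 in normal and 5.08 and 5.44 in contralateral kidneys. Such separation upwards was seen in 22.3% of all tested probe sets in total RNA. The newly transcribed arrays gave 5.27 (normal) and 4.82 (contralateral).

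Nphs1 encodes nephrin, the protein that bridges neighbouring foot processes at the slit diaphragm. In total RNA it was at 6.12 and 6.12 in normal and 6.45 and 6.14 in contralateral kidneys, and in amplified total RNA at 5.83 and 6.23 against 6.32 and 6.24. The contralateral values lay above the normal ones in both, as for 22.3% and 29.6% of tested probe sets, and the nearest arrays of the groups all but met. The differences were 0.17 ± 0.19 in total (adjusted p = 0.738) and 0.25 ± 0.19 in amplified total RNA (adjusted p = 0.473), and neither passed. The newly transcribed arrays were at 5.27 and 5.53.

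Podxl encodes podocalyxin, the sialylated protein of the podocyte surface, which vascular endothelium also makes. Its leading probe set (1448688_at) was at 9.15 and 9.61 in normal and 9.42 and 9.31 in contralateral total RNA, so the groups overlapped. The difference was -0.02 ± 0.15 for total and -0.04 ± 0.15 for amplified RNA (adjusted p = 0.979 and 0.887). Its second probe set (1417396_at), which the annotation ties to the same accession, was lower without overlap in both. Such separation was seen in 24.2% of tested probe sets in total and 25.3% in amplified total RNA. The second probe set read 5.84 and 6.09 against 5.80 and 5.38 in total RNA, and 5.65 and 5.78 against 5.20 and 5.16 in amplified total RNA. Neither difference passed (-0.37 ± 0.21, adjusted p = 0.447, and -0.54 ± 0.21, adjusted p = 0.133). The probe sets of Podxl thus gave different values for 1 gene.

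Ptpro encodes a receptor tyrosine phosphatase of the podocyte surface, also known as GLEPP1. Its leading probe set (1417676_a_at) was at 7.15 and 7.11 in normal and 6.73 and 6.98 in contralateral total RNA, and at 7.12 and 7.32 against 7.05 and 6.96 in amplified total RNA. The contralateral arrays were lower without overlap in both preparations, as for 24.2% and 25.3% of tested probe sets. The differences were small and did not pass, at -0.27 ± 0.15 (adjusted p = 0.437) and -0.21 ± 0.15 (adjusted p = 0.429). The second one (1425863_a_at, deposited intensities of 0.9 to 18.8) overlapped in both.

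Synpo encodes synaptopodin, which organizes actin in foot processes and in neuronal dendritic spines. Its leading probe set (1434089_at) read 7.00 and 7.13 in normal and 6.35 and 7.05 in contralateral total RNA, where the first contralateral array was low and the second lay within the normal range. The amplified arrays read 8.03 and 7.85 against 7.70 and 7.74, lower without overlap, as for 25.3% of tested probe sets. The differences were -0.36 ± 0.20 (adjusted p = 0.434) and -0.22 ± 0.20 (adjusted p = 0.539) and did not pass. The second probe set (1427045_at) read 5.34 and 5.29 against 4.95 and 4.76 in total RNA, and 4.0 and 3.87 against 4.16 and 3.98 in amplified total RNA. It was lower without overlap in the first, as for 24.2% of tested probe sets, and overlapping in the second.

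Cdkn1c encodes the cyclin-dependent kinase inhibitor p57, which marks the exit of podocytes from the cell cycle. It read 6.33 and 6.64 in normal and 6.36 and 6.73 in contralateral total RNA, and 8.01 and 8.09 against 8.05 and 7.97 in amplified total RNA. The groups overlapped in both. The differences were 0.06 ± 0.17 (adjusted p = 0.919) and -0.04 ± 0.17 (adjusted p = 0.909).

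Of the contralateral comparisons, total RNA gave 1 call: 1 of the 7 tested podocyte probe sets, that of Tcf21, was called lower and 0 were called higher in total RNA, where 1.92% of all tested probe sets were called (1.58% higher). The same 1 was called lower in amplified total RNA, where 10.3% were called. At an unadjusted p under 0.05 the count was 1 for total and 2 for amplified RNA, where the second Podxl probe set joined. By p, Tcf21 ranked 33 of 13575 in total and 1082 in amplified RNA. The second Podxl probe set ranked only 2595 in amplified RNA, so many other probe sets had a smaller p. Over all preparations 0 of 7 were called (0.442% of all probe sets, 0.383% higher), with 1, Tcf21 (rank 69 by p), at an unadjusted p under 0.05. The difference between amplified and total RNA in the contralateral effect passed for 0 of 7 (4.46% of all, 0.648% higher and 3.81% lower). Tcf21 alone of the 7 had an unadjusted p under 0.05 there, at rank 1508 of 13575 by p. Taking the leading probe set of each of 6 tested genes, the median difference was -0.14 for total and -0.13 for amplified total RNA, against -0.02 and 0.02 over all probe sets.

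Between the newly transcribed arrays, 0 of the 7 tested podocyte probe sets differed by 2-fold or more, while 32.8% of all tested probe sets did. Their differences ran from -0.49 for Tcf21 to 0.26 for Nphs1. The second Synpo probe set, not tested, was the 1 of 10 past 2-fold, at 4.13 in the normal and 5.19 in the contralateral kidney. Its deposited intensities were 8.4 and 11.5, low on both arrays.

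Several podocyte genes differed between preparations. In amplified against total RNA, Cdkn1c was higher by 1.51 ± 0.14 (adjusted p = 7.58e-05), Synpo (1434089_at) by 0.95 ± 0.17 (adjusted p = 0.00178) and the leading Podxl probe set by 0.63 ± 0.14 (adjusted p = 0.00596). Tcf21 was lower by 1.43 on the log2 scale (-1.43 ± 0.16, adjusted p = 0.000169). All 4 calls held in all 19 alternative fits. Of the 7 podocyte probe sets 4 were called, 3 higher and 1 lower, where 38.4% of all tested ones were (20.8% higher and 17.6% lower).

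The remaining 3 tested podocyte probe sets did not pass between amplified and total RNA: Nphs1 (-0.05), Ptpro (0.12) and the second Podxl probe set (-0.33). The amplified arrays of Tcf21 all lay below its total RNA arrays, as for 22.1% of probe sets, and those of Cdkn1c all above, as for 27.3%. The 2 probe sets of Synpo went opposite ways: the second one was at 5.34, 5.29, 4.95 and 4.76 in total and at 4.0, 3.87, 4.16 and 3.98 in amplified total RNA. Amplified arrays also had the higher Gapdh 3'/5' ratios given above, and the part of 3' bias in these differences was not tested.

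**Figure D3:**
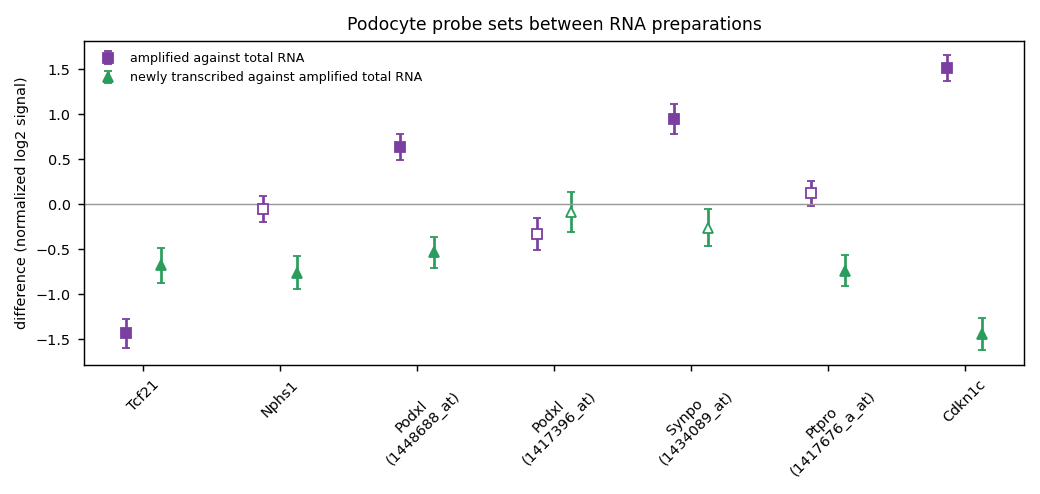
Difference in normalized log2 signal (vertical axis) between amplified and total RNA (squares) and between newly transcribed and amplified total RNA (triangles) for the 7 tested podocyte probe sets. Bars are limma standard errors, filled symbols passed at an adjusted p under 0.05; Cdkn1c is at 1.51 in the first comparison and at -1.44 in the second.

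Newly transcribed RNA was set against amplified total RNA over both kidneys, with 2 arrays against 4. All 7 podocyte probe sets had a negative difference, and 5 were called lower, where 16.7% of all tested probe sets were called lower and 11.9% higher (28.6% in all). Cdkn1c was lower by 1.44 (-1.44 ± 0.18, adjusted p = 0.000487), Nphs1 by 0.76 (-0.76 ± 0.18, adjusted p = 0.0114) and Ptpro by 0.74 (-0.74 ± 0.17, adjusted p = 0.0113). Tcf21 followed at -0.68 ± 0.20 (adjusted p = 0.0281) and the leading Podxl probe set at -0.53 ± 0.17 (adjusted p = 0.0424). Synpo (-0.26, adjusted p = 0.367) and the second Podxl probe set (-0.09, adjusted p = 0.794) did not pass.

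Cdkn1c, Nphs1 and Ptpro kept this call in all their alternative fits, 18, 17 and 18. Tcf21 kept it in 12 of 18. Among the fits that lost it were the one with the pseudocount at the median (adjusted p = 0.0755) and those without normal amplified replicate 1 (adjusted p = 0.0573), contralateral amplified replicate 1 (0.0622) or 2 (0.0744) and the normal newly transcribed array (0.103). Podxl kept it in 7 of 18. It lost the call without any 1 of the 4 amplified arrays (adjusted p from 0.0563 to 0.101), the contralateral newly transcribed array (0.103) or either contralateral total RNA array (0.0619 and 0.0645). The newly transcribed arrays had Gapdh 3'/5' ratios of 12.7 and 68.9 against 4.21 to 6.23, and their part in these differences was not tested.

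Of 49 other podocyte genes in 4 lists, 31 were tested. In total RNA 0 of the 31 passed, where 1.92% of all tested probe sets did, with a median difference of -0.01 and a range from -0.66 to 0.54. On the amplified arrays 4 rose and 0 fell, where 4.16% of all probe sets rose and 6.19% fell. These were Col4a4, a chain of the glomerular basement membrane collagen (0.68 ± 0.17, adjusted p = 0.0255), and the endothelial growth factor gene Vegfa (0.64 ± 0.16, adjusted p = 0.0292). The others were the junction scaffold gene Tjp1 (0.58 ± 0.11, adjusted p = 0.00859) and the non-muscle myosin gene Myh9 (0.46 ± 0.13, adjusted p = 0.0467). All 4 are made by other kidney cells as well.

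By role, the slit diaphragm and adaptor list (7 tested) had a median difference of -0.002 in total and 0.06 in amplified total RNA. The foot process cytoskeleton list (8 tested) was at -0.05 and -0.09, and the basement membrane, integrin and secreted list (14 tested) at 0.02 and 0.12. Foxc1 and Foxc2 were the 2 tested factors of the transcription factor list, with a median of 0.04 and 0.03 and 0 calls. Over all preparations 0 of the 31 passed (median 0.05), against 0.442% of all probe sets. Between the newly transcribed arrays, with no replicate, 6 of the 31 were at least 2-fold higher and 4 at least 2-fold lower, where 14.3% and 18.5% of all were. Their differences ran from -2.76 to 2.58 with a median of 0.06, and the cytoskeleton list had a median of 0.45.

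TCF21 acts as a dimer with an E-protein, encoded by Tcf3, Tcf4 or Tcf12. In amplified total RNA Tcf4 fell by 0.81 (-0.81 ± 0.20, adjusted p = 0.0244) and Tcf3 by 0.67 (-0.67 ± 0.16, adjusted p = 0.0215), while Tcf12 (-0.04) did not pass. On these arrays 6.19% of all tested probe sets were called lower. In total RNA 0 of the 3 passed (1.92% of all), and Tcf4 stood at 0.68 ± 0.20 (adjusted p = 0.127). The contralateral effect on Tcf4 differed between amplified and total RNA by -1.49 ± 0.28 (adjusted p = 0.0109), a difference that passed for 4.46% of all.

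**Figure D4:**
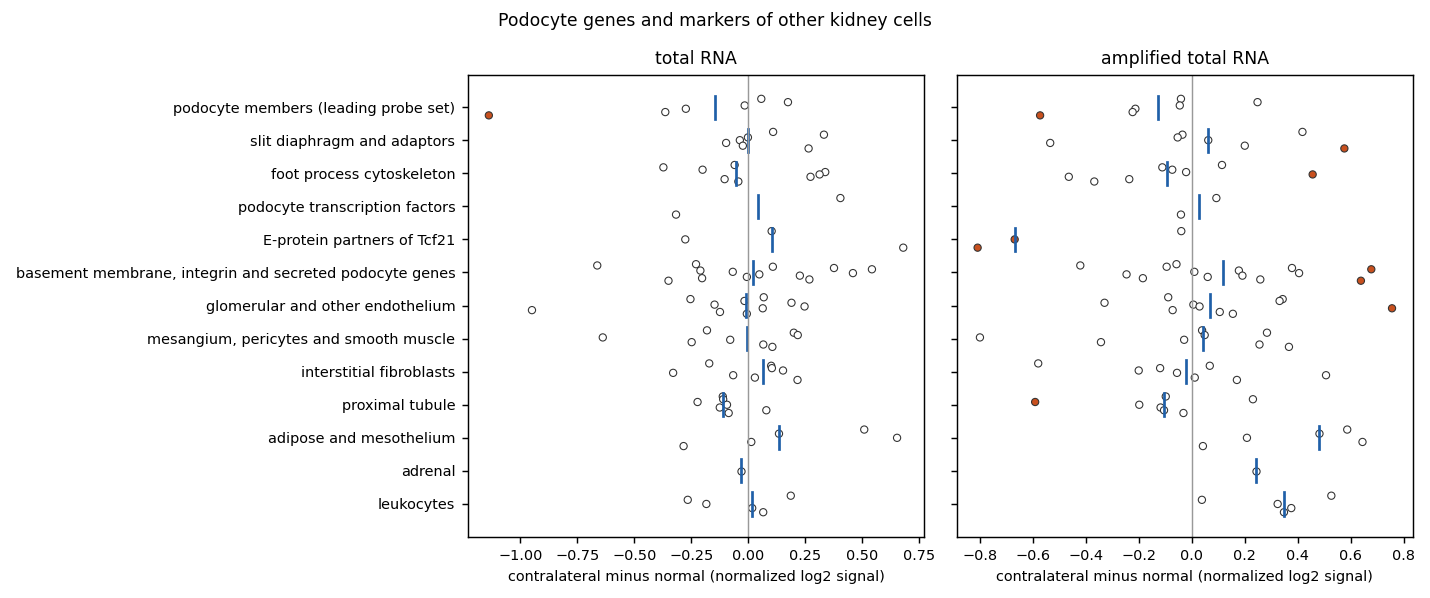
Contralateral minus normal difference in normalized log2 signal (horizontal axis) of each tested gene, by list (vertical axis), in total RNA (left) and amplified total RNA (right). Filled points passed at an adjusted p under 0.05 and blue bars are list medians; in total RNA the 1 filled point is Tcf21 at -1.14.

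Markers of other cells that a kidney sample can hold were set beside the podocyte genes. In total RNA, where 1.92% of all tested probe sets were called, 0 passed in any of the 7 lists: endothelium (10 tested), mesangium, pericytes and smooth muscle (8), interstitial fibroblasts (8), proximal tubule (7), adipose and mesothelium (5), leukocytes (5) and adrenal (1). The summed linear signal of 8 genes of fibroblasts, which are mesenchymal cells, was 2158 to 2483 in normal and 2299 to 2661 in contralateral total RNA, overlapping. That of 10 endothelial genes was 2585 to 2963 against 2355 to 2498, lower without overlap. That of 7 proximal tubule genes was 15554 to 15872 against 14890 to 14964, also lower without overlap. That of 6 adipose and mesothelial genes was 956 to 1432 against 1527 to 1707, higher without overlap. These sums weigh bright genes most and carry no test. Among single tested probe sets in total RNA, 24.2% were lower without overlap and 22.3% higher without overlap. By tested gene, the endothelial list had 4 positive and 6 negative differences in total RNA (median -0.01). The proximal tubule list had 1 and 6 (median -0.11), the adipose and mesothelial list 4 and 1 (0.13), and the fibroblast list 5 and 3 (0.06). The part of other cells in the Tcf21 difference was not tested, and 0 values of these marker genes were at 0.

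Between the amplified groups, 1 of 10 tested endothelial genes was called higher, Plat, by 0.76 ± 0.16 (adjusted p = 0.0117). In the proximal tubule list 1 of 7 was called lower, Lrp2, by 0.59 (-0.59 ± 0.13, adjusted p = 0.0149). The other marker lists had 0 calls there, where 4.16% of all tested probe sets were called higher and 6.19% lower. Of these 7 lists, the newly transcribed arrays had the largest median difference in the adipose and mesothelial one (2.04), whose sum was 570 in the normal and 3121 in the contralateral kidney, with 5 of 5 tested genes at least 2-fold higher, as were 14.3% of all tested probe sets. The leukocyte sum was 1075 against 2240, the fibroblast sum 1203 against 2673 and the mesangium, pericyte and smooth muscle sum 1214 against 2831. The adrenal sum was 44.3 against 123.1, the endothelial one 1471 against 2032, and the proximal tubule one was lower, at 9768 against 7500. All these sums set 1 newly transcribed array against 1, between which 32.8% of all tested probe sets differed by 2-fold or more. The contralateral array was dimmer (median 18.6 against 70.25) and had the higher Gapdh 3'/5' ratio (68.9 against 12.7). The sum of the 7 podocyte members, by leading probe set, was 1234 against 1024 on the same arrays. In total RNA it was 1276 to 1475 against 1152 to 1173, and in amplified total RNA 1809 to 1853 against 1619 to 1809. This sum includes Tcf21 itself and weighs most the leading Podxl probe set, the brightest member (mean normalized log2 signal 9.65). By tested gene, 2 of 6 members had a positive and 4 a negative difference in total RNA.

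The profile of Tcf21 over the 10 arrays was compared with that of every other tested probe set with 1 symbol. The 5 genes most like it were Cmtm8 (Pearson r = 0.995), Capn10 (0.979), Ap5s1 (0.976), Man2a1 (0.971) and B9d2 (0.970). These values describe 10 arrays that share 3 preparations and 2 kidney groups, and carry no test. All 5 were highest in normal total RNA, as Tcf21 was, and their steps were smaller. Cmtm8 read 7.36 and 7.40 in normal and 6.96 and 6.83 in contralateral total RNA, a difference of -0.49 ± 0.14 that did not pass (adjusted p = 0.130). The other 4 differed by -0.36 to -0.25 in total RNA and did not pass.

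**Figure D5:**
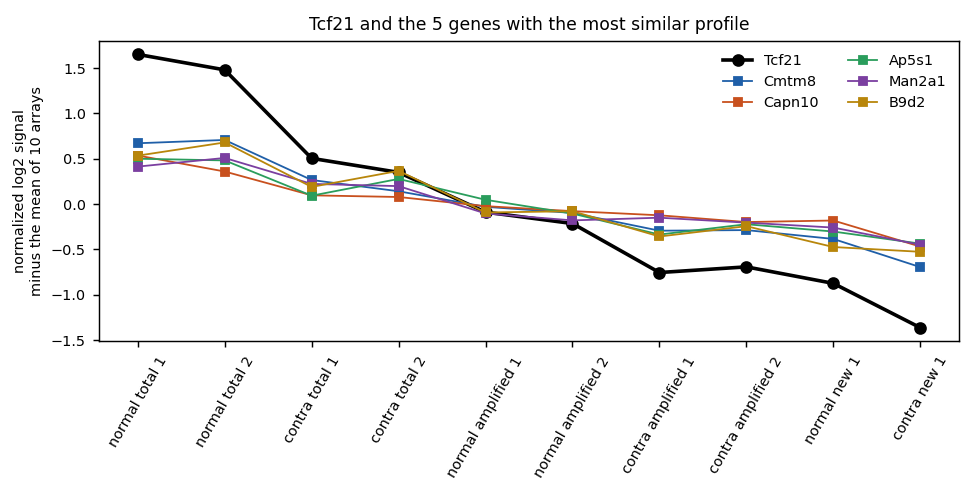
Normalized log2 signal minus its mean over the 10 arrays (vertical axis) for Tcf21 (black) and the 5 genes with the most similar profile, on each array (horizontal axis; contra, contralateral; new, newly transcribed). The lines join arrays only to show the profile; Tcf21 spans the widest range, from 8.41 on the first normal total RNA array to 5.40 on the contralateral newly transcribed one.

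Over the same 10 arrays the other podocyte probe sets followed the profile of Tcf21 to differing degrees, given as a description. Pearson r with Tcf21 was 0.76 for the second Podxl probe set, 0.57 for the second Synpo one, 0.52 for the leading Ptpro one, 0.44 for Nphs1 and 0.39 for the second Ptpro one. It was -0.56 for the leading Synpo probe set, -0.41 for Cdkn1c, -0.40 for the leading Podxl probe set and -0.27 for Wt1. Cdkn1c was highest in amplified total RNA of both kidneys (8.05 and 8.01) and stood between 6.49 and 6.64 in the 4 other groups. Nphs1 and the leading Ptpro probe set were lowest on the newly transcribed arrays, below all 4 groups of total and amplified total RNA.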

How the data were processed

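Each array has 1 deposited intensity per probe set, on a linear scale; how the authors summarized and scaled it is not stated in the labels or the file. The labels' protocols name column isolation, linear T7 amplification and biotin labelling. Here the values were transformed as log2(intensity + 11.8), the constant being the 25th percentile of all 22690 probe sets on 10 arrays, and quantile normalized. After 64 controls were set aside, 13575 probe sets with a mean above the 40th percentile were tested. The annotation gives 1 symbol for 20393 probe sets and several for 691, and 1555 are not listed; the 7 member symbols matched RefSeq by Entrez number. Both fits in limma 3.58.1 (R 4.3.3; lmFit, eBayes with an intensity trend) used all 10 arrays: an additive model of kidney and preparation (6 residual degrees of freedom), and 6 group means (4). In both, the lone newly transcribed arrays are assumed to vary like the others.

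The labels do not say whether a replicate number marks the same mouse in several preparations. For that reason the fits carry no block. Same-numbered arrays deviated together at r = 0.0998 (contralateral) and 0.0971 (normal) between total and amplified RNA, and less for the other pairs of groups. These r values cannot decide whether mice were shared. If they were, the p-values of comparisons that join preparations treat repeated mice as independent. P-values measure the spread between these arrays, whose number limits the precision. Named genes were every member probe set, list genes past the threshold (up to 4 with the largest change per list and direction), and the 5 genes most like Tcf21. Members and lists were chosen with earlier results of these data known. For list genes, the probe set of highest mean was used. The fits were tested on simulated data. Alternatives varied the pseudocount, scaling, filter, variance trend, arrays and replicate block.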

Additional observations from a re-analysis of the deposited data

Results flagged for a closer look

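The contralateral effect differed between amplified and total RNA, by limma's test of the difference, for Tcf4 (-1.49) and for Vegfa (0.99, adjusted p = 0.0327). Tcf4 stood at 0.68 (total), at -0.81 (amplified) and at -1.04 between the newly transcribed arrays. Vegfa stood at -0.35, 0.64 and -0.34.

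Some probe sets moved one way on both contralateral arrays of a preparation and the opposite way on the contralateral newly transcribed array. This difference was not tested, and the share of all probe sets that did so was not counted. Of all tested probe sets, 24.2% separated downwards and 22.3% upwards in total RNA, and 25.3% and 29.6% in amplified total RNA. The newly transcribed values set 1 array against 1. The second Podxl probe set was at -0.37 (total) and -0.54 (amplified), against 0.25 (newly transcribed). The leading Ptpro probe set was at -0.27 and -0.21, against 0.17. Wt1 was at 0.61 in total RNA against -0.45, and the second Synpo probe set at -0.46 against 1.06. Both are below the filter. Their deposited intensities on the normal and contralateral newly transcribed arrays were 41.3 and 7.8 for Wt1 and 8.4 and 11.5 for Synpo. Tcf4 and Vegfa, above, moved in opposite ways too, against total and against amplified total RNA.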

How the results depend on the processing

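Counts below are of the 7 podocyte probe sets past the threshold. Over all preparations the count of 0 became 1, Tcf21, with a pseudocount of 1, with the filter at the 60th percentile and without the newly transcribed arrays, and was 0 to 1 when single arrays were left out. In amplified total RNA the count of 1 became 0 with no filter and with only the arrays compared, and was 0 to 1 over the fits without 1 array. For newly transcribed against amplified total RNA the count of 5 was 3 with the replicate block and 3 to 5 without single arrays. With the block Tcf21 (adjusted p = 0.0527) and Podxl (adjusted p = 0.126) no longer passed there; it changed no other count of members. The cause of these changes was not tested. In amplified against total RNA the count of 4 was 5 with no filter, where the second Synpo probe set was tested too, and 4 in the other alternatives. The counts for total RNA, for the difference between preparations and for members past 2-fold between the newly transcribed arrays were the same in every alternative run.

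Single members that turned sign did not pass the threshold in any alternative. Over all preparations Cdkn1c was at 0.0079 without the newly transcribed arrays. The ranges below are over the fits that leave out 1 array. Cdkn1c ran from -0.085 to 0.029 over all preparations, from -0.13 to 0.24 for total and from -0.081 to 0.00037 for amplified RNA. The leading Podxl probe set ran from -0.24 to 0.21 and from -0.19 to 0.10 in the same pair of comparisons. For the contralateral effect in amplified minus total RNA, Cdkn1c ran from -0.28 to 0.087, Nphs1 from -0.12 to 0.27, Podxl from -0.37 to 0.041 (second) and -0.26 to 0.20 (leading), Ptpro from -0.065 to 0.19 and Synpo from -0.21 to 0.50. Nphs1 ran from -0.12 to 0.031 between amplified and total RNA, and the second Podxl probe set from -0.46 to 0.26 between newly transcribed and amplified RNA. Over all 13575 probe sets, the 60 calls over all preparations became 26 with the block, 312 without the newly transcribed arrays and 12 to 332 without single arrays. The 260 calls in total RNA became 85 with no filter, 145 with median scaling or no trend, and 48 to 380 without single arrays. The 1405 amplified calls ran down to 510, and the 605 calls of the difference between preparations became 403 with no filter and 271 to 693 without single arrays. The 5218 calls of amplified against total RNA became 7906 without the newly transcribed arrays, and the 3884 of newly transcribed against amplified RNA became 2330 with only the arrays compared and 2801 to 6722 without single arrays.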
